A study of Mus musculus with 9 samples.

Results

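Cultures labelled as aging retinal ganglion cells (RGCs) were compared with normal RGCs, gene by gene, in the 3 libraries of each group, 6 of the 9 libraries of the series. The members described are the genes with a mean of at least 10 CPM over these 6 libraries. CPM is a gene's count scaled to the library total, with the total adjusted by TMM factors. There were 8924 such well-expressed genes among the 12145 genes tested and the 22322 genes of the table. By their labels both groups were wild-type mouse RGCs, a name kept here as the label only. They were bought from a supplier and grown in high-glucose medium with serum, and the aging group also received D-galactose at 30 mg/mL. Another group received D-galactose and medium conditioned by urine-derived stem cells, and it entered only the shared filter, scaling and estimate of the spread. The 3 replicates of a group were separate wells, so each p-value measures the spread between wells of 1 bought cell stock. The exposure time of the sequenced wells is not stated in the sources.

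Retinal ganglion cells are the neurons that carry the output of the retina through the optic nerve, and they do not divide in the eye. D-galactose is a sugar that cells phosphorylate and convert to glucose phosphates, and a large excess is used in culture and in animals to model aging. Small changes in abundant mRNAs can matter for a cell's budget. Housekeeping machines such as the ribosome and the respiratory chain are built from many subunits that are made in bulk. These libraries measure mRNA only, and effects on protein or growth were not tested.

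The labelled cell type was checked against its markers first. Of 14 retinal ganglion cell markers, 11 had a mean under 1 CPM, and the transcription factor genes Pou4f2 and Pou4f3 and the neuronal genes Rbfox3 and Stmn2 had no count in any of the 6 libraries. The 3 markers over 10 CPM, Rbpms, Nefl and Isl1, all fell in aging RGCs. No photoreceptor marker reached 10 CPM. Of 12 mesenchymal markers 7 were tested, 1 rose and 5 fell, among them the collagen genes Col1a1 and Col3a1, and their summed level was 3157 to 3252 CPM in normal and 3061 to 3131 CPM in aging libraries. The 1 that rose was Vim, which encodes the filament protein vimentin, from 1661 to 1748 CPM in normal RGCs to 1964 to 2033 CPM in aging RGCs. Of 12 epithelial markers 4 were over 10 CPM and 7 had a mean under 1 CPM, and of the 5 tested 1 rose and 3 fell. Among the 4, the keratin genes Krt8, Krt18 and Krt19 were over 240 CPM in every library. The libraries thus lacked defining markers of the labelled cells. Of 9 glial markers, Glul and Sox9 were over 10 CPM and neither passed the test. Of 16 macrophage markers 13 were tested, 1 rose and 9 fell, and their summed level was 88.8 to 101.2 CPM in normal and 71.2 to 76.1 CPM in aging libraries, so these genes formed a very small part of each library. Fewer cells of a type and less RNA per cell cannot be told apart in such bulk samples. Library totals were 19814241 to 22342288 expected counts in normal RGCs and 18189616 to 19556335 in aging RGCs, so every normal library was deeper than every aging library, and the part of depth in the results was not tested.

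Most of the difference between the groups lay in small shifts. A gene passed the test at an adjusted p under 0.05 (quasi-likelihood F test of edgeR, Benjamini-Hochberg correction over all 12145 genes), and 4802 of the 8924 well-expressed genes passed. In aging RGCs 2478 of them were upregulated (27.8%) and 2324 were downregulated (26%), beside 23.5% upregulated and 23% downregulated among all genes tested. Of the 4802, 4730 (98.5%) differed by less than 2-fold, 2461 upward and 2269 downward. Only 17 well-expressed genes rose and 55 fell by 2-fold or more. The log2 fold change, aging minus normal, is written log2FC here and its standard error SE. The median absolute log2FC of the genes that passed was 0.26, which is a 1.2-fold difference, and the smallest was 0.07. The median log2FC over all well-expressed genes was 0.01. The TMM scaling sets this centre, so the split between directions depends on it, and without scaling factors 2183 genes were upregulated and 2596 downregulated.

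**Figure D1:**
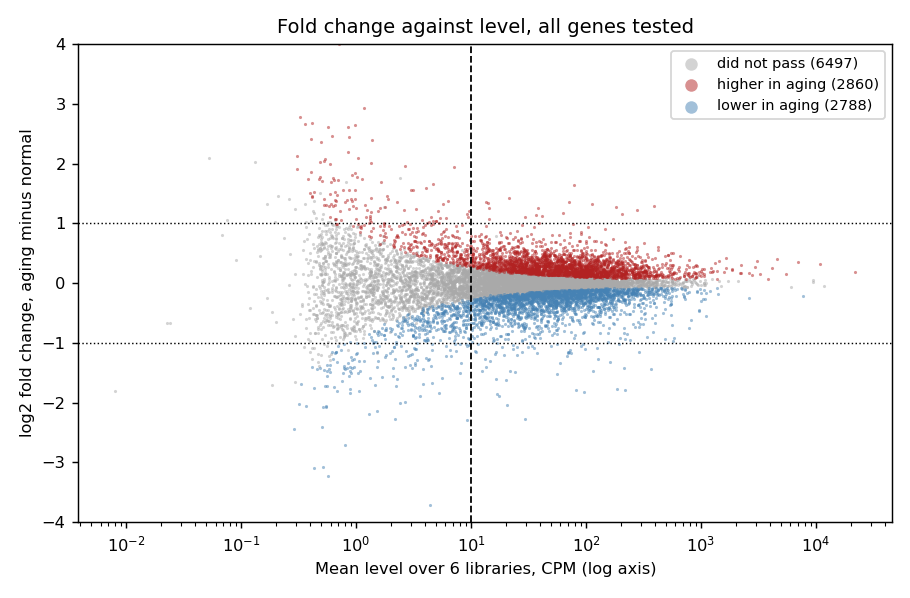
Each point is 1 of the 12145 genes tested, with its mean level over the 6 libraries in CPM on a log axis and its log2 fold change, aging minus normal. Red and blue points passed the test upward (2860) and downward (2788), the dashed line marks 10 CPM, the dotted lines mark a 2-fold difference, and 9 genes lie outside the vertical axis. To the right of the dashed line nearly all coloured points sit between the dotted lines.

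The shifts were small but separated the wells. The 3 aging values lay wholly above or wholly below the 3 normal values for 4548 of the 4802 genes that passed (94.7%). The same held for 59.2% of all well-expressed genes and for 53% of all genes tested. The test used these same values, so the separation of the genes that passed follows largely from their selection. By size, taken as the excess of the larger mean over the smaller, 4057 well-expressed genes differed by less than 10%, and 479 of them (11.8%) passed. Between 10% and 25% there were 3162 genes, of which 1423 were upregulated and 1198 downregulated, or 82.9% together. From 25% to 50% 1317 of 1319 genes passed, 668 upward and 649 downward. The balance changed with size, since 104 genes rose and 209 fell between 50% and 2-fold. Tested against a difference of 1.1-fold instead of no difference, 1396 genes were upregulated and 1352 downregulated, and against 1.2-fold 519 and 629.

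**Figure D2:**
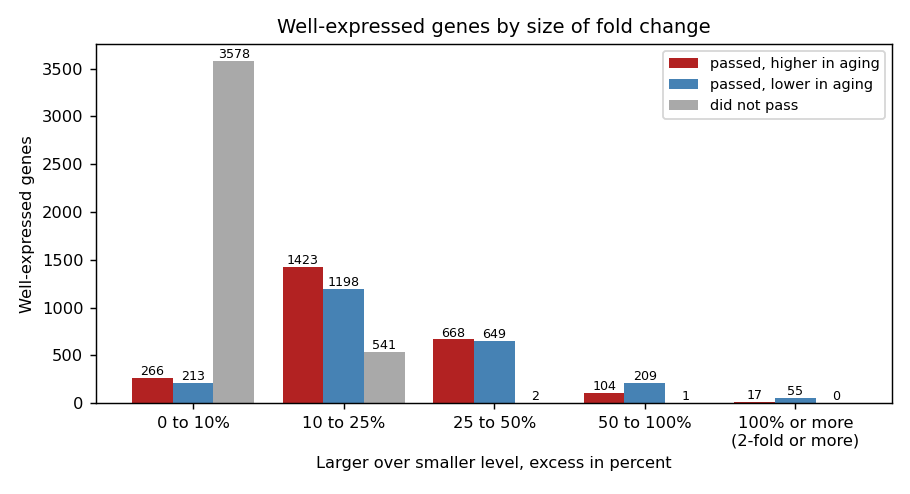
Bars give the number of well-expressed genes in 5 bands of size, the excess of the larger mean level over the smaller in percent, for genes that were higher in aging RGCs and passed (red), lower and passed (blue), or did not pass (grey). The largest groups that passed are the 1423 upregulated and 1198 downregulated genes between 10% and 25%.

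In terms of reads the small shifts also carried nearly all of the change. Summed over genes, the upregulated genes under 2-fold gained 60680 CPM, against 1323 CPM for those at 2-fold or more. The downregulated genes under 2-fold changed by -43730 CPM and those at 2-fold or more by -3202 CPM. The 6 upregulated mitochondrially encoded genes held 8892 CPM of the gain. The TMM factors were 1.0232 to 1.0337 in normal and 1.0102 to 1.0171 in aging libraries. The balance of summed gain and loss depends on this scaling. Well-expressed genes took 98.7% to 98.8% of the counts of each library. Genes under 10 CPM passed in 26.3% of cases, 846 of 3221, and their median standard error on the log2 scale was 0.22 against 0.06 for well-expressed genes. The limit itself ran through ordinary genes. Just over it lay Ndufa5, a respiratory subunit gene with means of 9.50 CPM in normal and 10.5 CPM in aging RGCs, and Cyb5d1 with 9.32 and 10.7 CPM. Just under it lay Coq6, a gene of ubiquinone synthesis with 10.2 and 9.78 CPM, and Khk, the fructokinase gene, with 8.33 and 11.7 CPM.

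The genes with the most reads among the small shifts were named next, 8 in each direction, and the rule took only genes whose groups do not overlap. Upward these were 5 mitochondrially encoded genes, the glycolytic genes Gapdh and Eno1, and the chaperone gene Hsp90ab1. mt-Co1 (chrM:5328-6872 on GRCm38, plus strand), which encodes a catalytic subunit of cytochrome oxidase, had 20024, 20339 and 21513 CPM in normal RGCs and 22916, 23728 and 23762 CPM in aging RGCs. All 3 aging values were higher, with a log2FC of 0.19 (SE 0.03, adjusted p = 1.24e-06). mt-Cytb, the cytochrome b gene of complex III, had 9241, 9450 and 10104 CPM in normal RGCs and 11528, 11871 and 12331 CPM in aging RGCs. The groups again did not overlap, and the log2FC was 0.31 (SE 0.03, adjusted p = 1.16e-09). mt-Nd5, a subunit gene of complex I that shares exon bases with mt-Nd6 on the other strand, had 3614, 4054 and 4254 CPM in normal RGCs and 5054, 5058 and 5688 CPM in aging RGCs, and rose by 0.41 (SE 0.04, adjusted p = 7.95e-09). mt-Nd4 rose by 0.35 and mt-Co3 by 0.15.

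Gapdh (chr6:125161715-125166467, minus strand), a glycolytic enzyme gene often used as a reference gene, had 3667, 3696 and 3886 CPM in normal RGCs and 4427, 4467 and 4489 CPM in aging RGCs. Its lowest aging value lay above its highest normal value, and the log2FC was 0.25 (SE 0.03, adjusted p = 1.33e-08). Gapdh and Eno1 had fractional counts in all 6 libraries, which arise where reads are split between near copies, so their levels are uncertain. Eno1 rose by 0.15. Hsp90ab1, a cytosolic HSP90 gene, had 3708, 3706 and 3690 CPM in normal RGCs and 3808, 3982 and 3899 CPM in aging RGCs. This difference of 0.07 (SE 0.03, adjusted p = 0.0198) was near the smallest that passed. It missed the threshold without aging replicate 2 (0.06, adjusted p = 0.134), without aging replicate 3 (adjusted p = 0.0589), without normal replicate 3 (adjusted p = 0.0546) and without scaling factors (adjusted p = 0.0796).

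Downward, the genes with the most reads were the elongation factor genes Eef1a1 and Eef2, then Tpt1, Actb, Rack1, Spp1, Ftl1 and Hspa5. Eef1a1 (chr9:78478449-78489151, minus strand), which encodes the factor that brings aminoacyl-tRNA to the ribosome, had 8295, 8029 and 8419 CPM in normal RGCs and 7170, 6988 and 7117 CPM in aging RGCs. The aging values were all lower, and the log2FC was -0.22 (SE 0.03, adjusted p = 8.79e-08). Eef2 (chr10:81176631-81182498, plus strand), the translocation factor gene, had 2949, 2746 and 2844 CPM in normal RGCs and 2382, 2383 and 2435 CPM in aging RGCs, a fall of 0.25 on the log2 scale. Spp1, which encodes the secreted phosphoprotein osteopontin, fell most of these, from 1302, 1288 and 1395 CPM to 895, 903 and 907 CPM. Its log2FC was -0.56 (SE 0.03, adjusted p = 2.28e-14). Hspa5, the gene of the main chaperone of the endoplasmic reticulum, fell from 1113, 1307 and 1152 CPM to 998, 1000 and 960 CPM. Tpt1 had a log2FC of -0.19, Rack1, a scaffold gene of the small ribosomal subunit, -0.13, and the ferritin light chain gene Ftl1, which had fractional counts in all 6 libraries, -0.16. Actb, the cytoplasmic beta-actin gene, had 1430, 1442 and 1393 CPM in normal RGCs and 1311, 1371 and 1341 CPM in aging RGCs. Its log2FC of -0.08 (SE 0.03, adjusted p = 0.0187) missed the threshold without aging replicate 1 (adjusted p = 0.0855) or without aging replicate 3 (adjusted p = 0.0564).

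**Figure D3:**
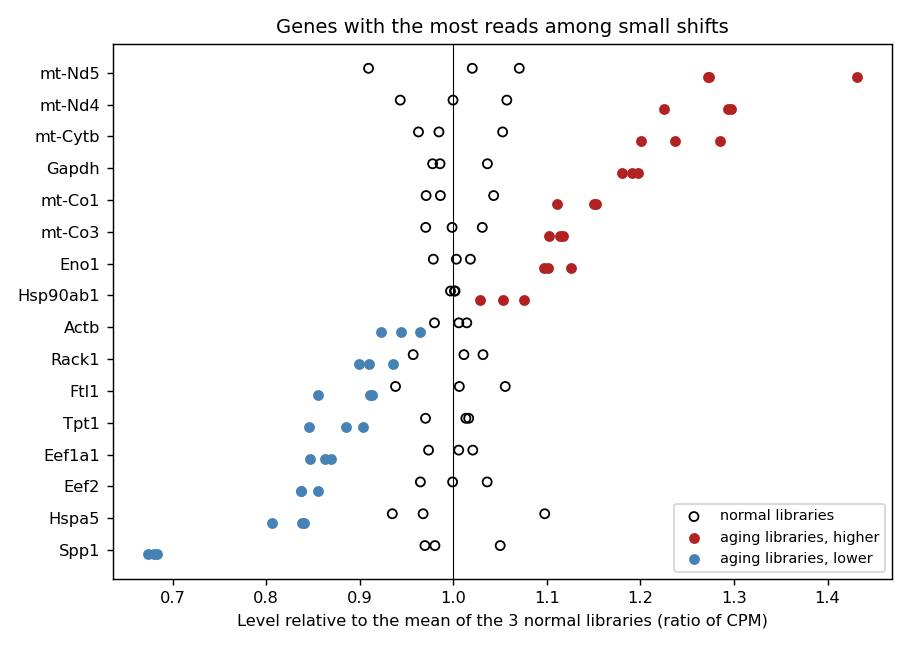
The 16 genes with the most reads among the small shifts are shown with each library's CPM divided by the mean of the 3 normal libraries. Open circles are normal libraries and filled circles aging libraries, red where higher and blue where lower. The fold changes run from the fall of Spp1 to the rise of mt-Nd5, and the rule for these genes took only those whose groups do not overlap.

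Among the shifts under 2-fold without overlap, the 5 genes with the smallest p-values were named in each direction. Upward these were Hmgcs1 and Sqle of sterol synthesis, Ccne2 and Rrm1 of the entry into S phase, and Gtse1, a microtubule-binding gene of G2 cells. Ccne2, the cyclin E2 gene, had 70.5, 68.5 and 73.9 CPM in normal RGCs and 134, 141 and 132 CPM in aging RGCs, and it shares exon bases with Ints8 on the other strand. Ccne2 also had fractional counts in all 6 libraries. Its log2FC was 0.93 (SE 0.04, adjusted p = 9.24e-17). Rrm1, the large subunit gene of ribonucleotide reductase, rose from 251, 241 and 253 CPM to 401, 392 and 390 CPM. Gtse1 rose from 53.6, 46.8 and 54.0 CPM to 102 to 103 CPM in the 3 aging libraries, a log2FC of 0.99.

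Downward, under the same limits, these were H1f0, Shmt2, Atf4, Nars and Cars. H1f0 (chr15:79028450-79030504, plus strand), the gene of the linker histone H1.0, had 715, 764 and 769 CPM in normal RGCs and 377, 399 and 372 CPM in aging RGCs. Its log2FC was -0.97 (SE 0.03, adjusted p = 5.37e-19). Atf4 (chr15:80255184-80257541, plus strand), which encodes the transcription factor of the amino acid response, had 623, 676 and 629 CPM in normal RGCs and 337, 328 and 338 CPM in aging RGCs, a log2FC of -0.94. Shmt2, the mitochondrial serine hydroxymethyltransferase gene, fell from 312, 324 and 318 CPM to 159, 170 and 166 CPM. Nars and Cars, which encode the synthetases that load tRNA with asparagine and cysteine, had log2FCs of -0.93 and -0.99.

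The well-expressed genes were then described in 34 lists of cell machinery, which together held 1094 distinct well-expressed genes. The lists were chosen with earlier results of these data known, so their counts and shares are descriptions and not independent support. Of these 417 (38.1%) were upregulated and 257 (23.5%) downregulated, beside 27.8% and 26% of all well-expressed genes, and 647 of the 674 differed by less than 2-fold. Upregulated members outnumbered downregulated ones in 21 lists, the reverse held in 12, and the actin list was even. In 26 lists no member that passed reached 2-fold. The counts below are of well-expressed members.

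**Figure D4:**
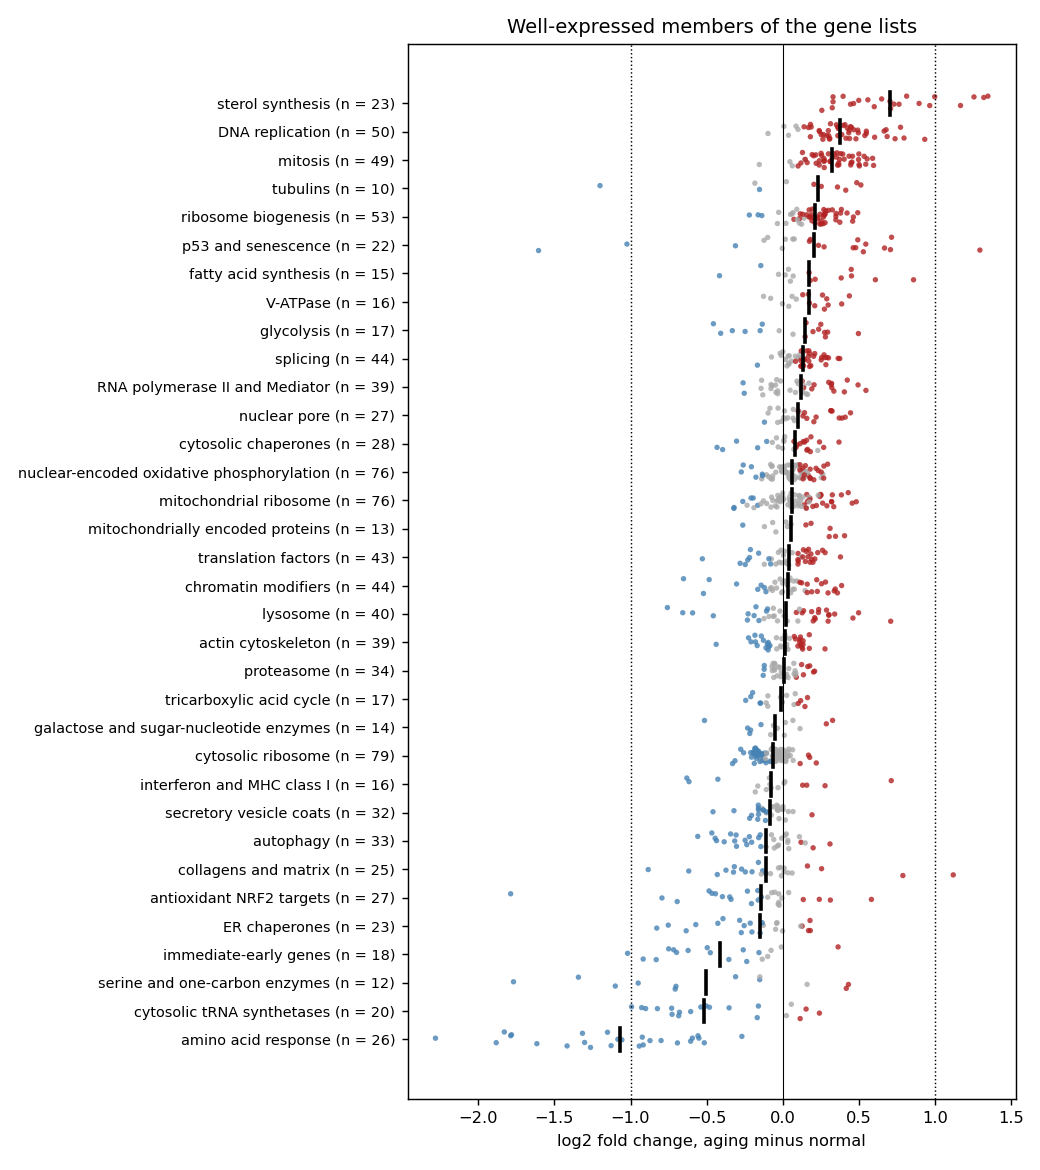
Each point is a well-expressed gene of a list, placed by its log2FC, aging minus normal, and coloured red or blue where it passed the test upward or downward and grey where it did not. Black bars are list medians, dotted lines mark a 2-fold difference, and lists are ordered by median. Medians run from -1.07 for the amino acid response to 0.71 for sterol synthesis, and in most lists all points lie between the dotted lines.

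In energy metabolism the mitochondrially encoded genes moved unevenly. Of the 13 genes, 6 rose and mt-Nd3 fell, with a median log2FC of 0.05, which became 0.15 without normal replicate 2 and 0.03 without aging replicate 3. Without normal replicate 1, 4 fell, and without normal replicate 2 or aging replicate 3, 2 fell. mt-Nd3, a complex I subunit gene, had 1148, 1259 and 989 CPM in normal RGCs and 991, 880 and 960 CPM in aging RGCs, so its groups overlapped slightly, and its log2FC was -0.26 (adjusted p = 0.000226). mt-Co2, next to mt-Co1 in function, had 11353 to 12191 CPM in normal and 11076 to 11880 CPM in aging RGCs and did not pass. The sum of the 13 genes was 81812, 84861 and 88282 CPM in normal and 90669, 93768 and 96079 CPM in aging RGCs, and the groups did not overlap. The sum also rose from replicate 1 to replicate 3 within each group, and the normal wells spanned more than the gap between the groups. Over the 6 libraries in this order the TMM factors fell from 1.0337 to 1.0102. The part of this gradient in the group difference was not tested. Mitochondrial genes took 8.46% to 9.03% of the counts in normal and 9.22% to 9.71% in aging libraries. Neighbouring mitochondrial genes share bases and the libraries were selected by oligo(dT), so single genes are less certain than the sum.

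The nuclear-encoded genes of oxidative phosphorylation shifted little. Of 76 genes 17 rose and 6 fell, both under the background shares of 27.8% and 26%, with a median of 0.06 and no log2FC beyond -0.27 or 0.30. Without aging replicate 1, 11 rose, and the median was 0.04 without normal replicate 3. Atp5pb, a stalk subunit gene of the ATP synthase, rose from 263, 274 and 276 CPM to 303, 310 and 308 CPM. Complex I had 7 upregulated and 2 downregulated genes of 37, complex II 1 upregulated of 4, complex III 2 downregulated of 9, complex IV 3 and 1 of 11, and the ATP synthase 5 and 1 of 14. The mitochondrial ribosome had 21 upregulated and 6 downregulated genes of 76, with a median of 0.06 and a summed level 5.30% higher. Its upregulated share of 27.6% was near the background of 27.8%, and its downregulated share of 7.89% was under that of 26%. In the tricarboxylic acid cycle 4 genes rose and 5 fell of 17. With 1 well left out the median of -0.01 ran from -0.06 without aging replicate 1 to 0.01 without aging replicate 2.

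Genes of glycolysis moved in both directions. Of 17 genes 9 rose and 6 fell, with a median of 0.15. The summed level was 17253 to 17898 CPM in normal and 19752 to 19867 CPM in aging RGCs, 13.2% higher. This sum includes Gapdh, with means of 3750 CPM in normal and 4461 CPM in aging RGCs, and Eno1, with 3080 and 3412 CPM. Both had fractional counts in all 6 libraries, so the size of the gain is uncertain. Ldha, the lactate dehydrogenase A gene, rose from 1969, 1940 and 2072 CPM to 2417, 2500 and 2424 CPM (log2FC 0.30), and the pyruvate kinase gene Pkm rose by 0.28. Tpi1 and Pgam1, of the steps between, rose by 0.28 and 0.24. The genes that fell included the glucose transporter gene Slc2a1 (-0.33), the hexokinase gene Hk2 (-0.15), the phosphofructokinase gene Pfkp (-0.41) and the neuronal enolase gene Eno2 (-0.46). Of 14 enzymes that handle galactose and sugar nucleotides 2 rose and 5 fell, with a median of -0.05 that ran from -0.07 without aging replicate 2 or normal replicate 3 to -0.03 without normal replicate 2. Galk1, the first enzyme gene of galactose breakdown, fell from 96.1, 97.2 and 95.5 CPM to 82.9, 82.4 and 80.8 CPM, a log2FC of -0.23. Akr1b3, the aldose reductase gene, fell from 305, 194 and 283 CPM to 188, 178 and 183 CPM, where normal replicate 2 lay close to the aging wells. Pgm1 rose by 0.33.

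All 23 well-expressed sterol synthesis genes were upregulated, with a median log2FC of 0.71 and 4 at 2-fold or more, and the summed level was 1775 to 1781 CPM in normal and 2747 to 2779 CPM in aging RGCs, 55.7% higher. The 4 were Cyp51 (1.35), Idi1 (1.32), Hsd17b7 (1.26) and Insig1 (1.17), and the other 19 would be missed at a 2-fold limit. Srebf2, the regulator gene of this pathway, rose from 253, 245 and 249 CPM to 291, 305 and 296 CPM, the smallest rise of the list. Its groups still stood apart. In fatty acid synthesis 8 genes rose, 2 fell and 5 did not pass of 15, with a median of 0.17, and 1 fell without normal replicate 1. Acly, which makes cytosolic acetyl-CoA, rose from 329, 328 and 343 CPM to 506, 514 and 505 CPM, and Fasn rose by 0.45. Srebf1 was among the genes that fell (-0.14).

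Hmgcs1, the gene of the enzyme that makes HMG-CoA, rose from 101, 104 and 104 CPM to 195, 194 and 185 CPM, a log2FC of 0.90 (SE 0.04, adjusted p = 1.96e-17). Its promoter is shown as the only one among 15 sterol synthesis promoters with a match to a sterol regulatory element, TCACNCCAC on either strand. The 250 bases end at the RefSeq start (GRCm38.p6, chr13:119690101-119690350, plus strand), and capitals mark the match, 137 bases before the start.
Hmgcs1: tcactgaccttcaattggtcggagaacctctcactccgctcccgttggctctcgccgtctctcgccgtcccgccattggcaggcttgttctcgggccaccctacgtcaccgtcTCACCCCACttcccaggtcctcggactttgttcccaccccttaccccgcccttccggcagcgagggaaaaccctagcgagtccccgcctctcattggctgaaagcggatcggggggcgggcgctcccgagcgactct
The element was found in 1.22% of all 27025 promoters, in 0.735% of those of upregulated well-expressed genes and in 1.29% of those of downregulated ones. A window for these shares, which cover 7223 of the 8924 genes, runs from 250 bases before to 50 bases after the RefSeq start.

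The amino acid response held the largest downward shifts. All 26 well-expressed genes fell, with a median log2FC of -1.07 and 14 at 2-fold or more, and the summed level went from 5053 to 5324 CPM in normal RGCs to 2760 to 2802 CPM in aging RGCs, 46.3% lower. Asns, the asparagine synthetase gene, fell from 296, 326 and 304 CPM to 114, 119 and 114 CPM, a log2FC of -1.42. Slc7a5, the gene of a transporter of large neutral amino acids, had 408, 398 and 386 CPM in normal and 170, 187 and 180 CPM in aging RGCs, a log2FC of -1.15. The 12 small shifts of this list included Slc7a1 (-0.69), a transporter gene for basic amino acids, and Slc38a2 (-0.27), whose 820, 776 and 791 CPM in normal and 665, 631 and 686 CPM in aging RGCs made the smallest fall of the list. Of 12 serine and one-carbon enzymes 8 fell and 2 rose, with a median of -0.51. Aldh1l2, a mitochondrial folate enzyme gene, fell most, from 274, 313 and 274 CPM to 81.4, 91.3 and 79.9 CPM, while Phgdh, the first enzyme gene of serine synthesis, fell by 0.31. Aldh1l2 had fractional counts in all 6 libraries and shares exon bases with D10Wsu102e on the other strand. Of 20 cytosolic tRNA synthetases 15 fell and 3 rose, none by 2-fold, with a median of -0.52. Sars, the seryl-tRNA synthetase gene, fell from 472, 528 and 474 CPM to 272, 285 and 276 CPM. The 3 that rose were Dars, Kars and Farsa, with log2FCs of 0.11, 0.15 and 0.24.

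The promoter of Slc7a11, the cystine transporter gene, is shown for its paired composite sites of ATF4 and C/EBP factors, TGATGNAA on either strand. Slc7a11 had 328, 364 and 317 CPM in normal and 100, 98.5 and 93.6 CPM in aging RGCs, a log2FC of -1.79. The bases run to the RefSeq start (GRCm38.p6, chr3:50443614-50443863, minus strand), capitals mark both matches, and the first begins 66 bases before the start.
Slc7a11: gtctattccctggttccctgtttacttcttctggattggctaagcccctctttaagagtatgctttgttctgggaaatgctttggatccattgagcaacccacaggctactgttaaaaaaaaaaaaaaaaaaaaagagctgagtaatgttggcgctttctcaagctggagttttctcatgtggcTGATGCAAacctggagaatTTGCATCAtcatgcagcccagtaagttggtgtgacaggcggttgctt
The site was found in 8 of 22 promoters of the amino acid response and 5 of 13 of the tRNA synthetases. It stood in 3.48% of promoters of downregulated, 1.13% of upregulated and 1.51% of well-expressed genes that did not pass, against 4.06% of all promoters.

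In the translation machinery the genes that passed mostly fell for the ribosome itself and mostly rose for the making of ribosomes. Of 79 cytosolic ribosomal protein genes 32 fell and 4 rose, with a median of -0.07, no log2FC beyond -0.33 or 0.22, and 20 that fell without aging replicate 2. The 32 and 4 genes were 40.5% and 5.06% of the list, beside 26% and 27.8% of all well-expressed genes. The small subunit had 13 downregulated and 2 upregulated genes of 32, and the large subunit 19 and 2 of 47. The summed level was 39656 to 39889 CPM in normal and 37739 to 39710 CPM in aging RGCs, 2.31% lower with overlap. Rpl6 fell from 1114, 1092 and 1120 CPM to 1036, 1016 and 1017 CPM. Among the 4 that rose were Rps2, from 2496, 2380 and 2539 CPM to 2777, 2782 and 2779 CPM, and Rplp0, a stalk protein gene, by 0.22. Ribosomal protein genes have many near copies, and 11 of the 79 had fractional counts in all 6 libraries. Of these 11 genes 7 fell and none rose. Of 53 ribosome biogenesis genes 39 rose and 3 fell, none by 2-fold, with a median of 0.21 and a summed level 16.3% higher. Ncl, the nucleolin gene, rose from 1197, 1275 and 1287 CPM to 1603, 1693 and 1580 CPM, and Polr1a, the largest subunit gene of RNA polymerase I, rose by 0.35. Of 43 translation factors 19 rose and 9 fell, with a median of 0.04 that was 0.02 without aging replicate 1 and 0.07 without aging replicate 3. The sum was 2.50% lower in aging RGCs although more members rose, with Eef1a1 and Eef2 among those that fell. Pabpc1, the poly(A)-binding protein gene, rose from 2590, 2687 and 2623 CPM to 2801, 2965 and 2917 CPM.

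Genes of the dividing cell rose together by small amounts. Of 50 DNA replication genes 45 rose and none fell, with a median log2FC of 0.38, and of 49 mitosis genes 45 rose and none fell, with a median of 0.33. None of these 90 reached 2-fold. Without aging replicate 2 or normal replicate 1, 1 mitosis gene fell. The summed level of the replication genes was 4224 to 4413 CPM in normal and 5781 to 5860 CPM in aging RGCs, 33.9% higher, and that of the mitosis genes 7962 to 8412 CPM and 10110 to 10300 CPM, 24.4% higher. Pcna, the sliding clamp gene, rose from 296, 286 and 307 CPM to 409, 395 and 402 CPM, a log2FC of 0.44 (SE 0.03, adjusted p = 1.29e-11). Top2a, the topoisomerase gene of condensing chromosomes, rose from 1128, 1066 and 1150 CPM to 1376, 1305 and 1302 CPM, and Mki67, which encodes the Ki-67 protein, from 731, 668 and 737 CPM to 866, 866 and 849 CPM. In these 3 genes every aging well was above every normal well. Ccnb1 and Plk1 rose by 0.50 and 0.34.

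Mcm5, a gene of the replicative helicase, rose from 108, 98.5 and 102 CPM to 169, 160 and 167 CPM, a log2FC of 0.69 (SE 0.04, adjusted p = 1.15e-13). Its promoter is shown for an E2F site, TTTCGCGC on either strand, which was found in 5 of 41 promoters of replication genes. The bases run to the RefSeq start (GRCm38.p6, chr8:75109259-75109508, plus strand), and the match in capitals lies 153 bases before it.
Mcm5: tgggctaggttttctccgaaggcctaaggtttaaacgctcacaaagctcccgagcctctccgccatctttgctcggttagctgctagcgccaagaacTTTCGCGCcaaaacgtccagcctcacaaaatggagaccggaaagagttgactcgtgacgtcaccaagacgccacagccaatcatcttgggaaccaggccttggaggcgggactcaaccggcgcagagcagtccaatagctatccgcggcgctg
The site stood in 1.47% of promoters of upregulated, 0.268% of downregulated and 0.453% of well-expressed genes that did not pass, and in 0.318% of all promoters. NF-Y sites (ATTGGCT) were found in 17 of 42 mitosis and 7 of 15 sterol synthesis promoters, beside 13.4% of upregulated, 11.5% of downregulated and 11.6% of all well-expressed genes. GC-boxes (GGGGCGGGG) were found in 30.8% of promoters of downregulated, 20.2% of upregulated and 24.2% of all well-expressed genes, against 11.6% of all promoters. The E-box CACGTG was found in 13.9%, 9.37% and 9.90% of upregulated, downregulated and not passed promoters. CRE (TGACGTCA), ETS (CCGGAAGT), YY1 (AAGATGGC), NRF1 and TATAAA matches stood in 3.67%, 9.70%, 5.93%, 13.0% and 7.74% of upregulated and 3.37%, 7.87%, 4.55%, 10.1% and 6.21% of downregulated promoters.

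Other nuclear machinery also rose more often than it fell. The upregulated shares were 63.6% for splicing and 48.1% for the nuclear pore, beside 27.8% of all well-expressed genes. They were nearer that background for RNA polymerase II and Mediator (33.3%) and for chromatin modifiers (31.8%). The downregulated shares were 2.27%, 3.7%, 5.13% and 18.2% in the same order, beside 26%. Of 44 splicing genes 28 rose and 1 fell, with a median of 0.13 and a summed level of 7604 to 7663 CPM in normal and 8413 to 8477 CPM in aging RGCs. Srsf1, a splicing activator gene, rose from 501, 519 and 496 CPM to 566, 588 and 560 CPM. RNA polymerase II and Mediator had 13 upregulated and 2 downregulated genes of 39, with a median of 0.12 that was 0.08 without aging replicate 1, and 4 fell without normal replicate 2. Of the members that passed, the largest subunit gene Polr2a had the most reads, and it rose from 477, 443 and 448 CPM to 612, 657 and 660 CPM. The nuclear pore had 13 upregulated and 1 downregulated gene of 27, with a median of 0.10 and 0 to 3 that fell with 1 well left out (3 without normal replicate 1, 2 without aging replicate 1 and 0 without aging replicate 3), and Nup155, a scaffold gene of the pore, rose by 0.37. Chromatin modifiers were mixed, with 14 upregulated and 8 downregulated of 44 and a median of 0.04, which was 0.06 without normal replicate 1 and 0.02 without normal replicate 2. The maintenance methyltransferase gene Dnmt1 rose from 314, 298 and 308 CPM to 372, 376 and 370 CPM.

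The p53 and senescence list did not move as 1 block. Of 22 well-expressed genes 13 rose and 3 fell, with a median of 0.21. Ccng1, a p53 target gene for cyclin G1, rose from 230, 218 and 225 CPM to 556, 543 and 553 CPM, a log2FC of 1.30. Cdkn1a, the p21 gene that p53 also drives, had 266, 293 and 285 CPM in normal and 270, 288 and 284 CPM in aging RGCs, with a log2FC of 0.00 (SE 0.04, adjusted p = 0.954). The groups of Cdkn1a overlapped throughout. Lmnb1 and Hmgb1, which are known to fall in senescent cells, rose by 0.18 and 0.24. Gdf15, the gene of a secreted factor, fell by 1.60 on the log2 scale. Glb1, the gene of the lysosomal beta-galactosidase, had a log2FC of 0.02 (adjusted p = 0.814).

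In protein folding a list of mainly cytosolic chaperones and a list of the endoplasmic reticulum differed in direction. Of 28 heat-shock protein and CCT chaperonin genes 14 rose and 5 fell, with a median of 0.08, and 7 rose by limma on FPKM. This list also names the mitochondrial Hspd1, Hspe1 and Hspa9. Hspa8, the constitutive HSP70 gene, rose from 2696, 2511 and 2776 CPM to 3451, 3423 and 3444 CPM, a log2FC of 0.37, whereas its mitochondrial relative Hspa9 fell by 0.30. Of 23 chaperone and stress genes of the endoplasmic reticulum 13 fell and 4 rose, with a median of -0.15. Ero1a, an oxidase gene for disulfide bonds, fell from 877, 1108 and 992 CPM to 573, 620 and 574 CPM, and Herpud1 and Xbp1 had log2FCs of -0.83 and -0.57. The lectin chaperone gene Canx rose from 1118, 1150 and 1127 CPM to 1314, 1268 and 1263 CPM. Of 32 genes of secretory vesicle coats 14 fell and 1 rose, with a median of -0.08, and Copb1, a coat subunit gene, fell by 0.16.

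Degradation was divided between the lysosome and autophagy. Of 40 lysosomal genes 17 rose and 11 fell, with a median of 0.02 that was at or below 0 without aging replicate 3 or normal replicate 2, 0.06 without aging replicate 2 and 0.04 without aging replicate 1 or normal replicate 3. Lamp1, the main lysosomal membrane protein gene, rose from 443, 429 and 442 CPM to 594, 598 and 619 CPM, a log2FC of 0.46. Grn, the progranulin gene, fell from 591, 551 and 558 CPM to 471, 479 and 502 CPM. Of 16 genes of the V-ATPase, the proton pump of the lysosome, 10 rose and none fell (1 fell without normal replicate 2), with a median of 0.17, and Atp6v0c rose from 302, 301 and 293 CPM to 360, 365 and 376 CPM. Of 33 autophagy genes 16 fell and 3 rose, with a median of -0.11 and a summed level 15.5% lower. The mean sum went from 3238.5 to 2737.4 CPM, and the mean of Sqstm1 alone from 1107.7 to 802.0 CPM. Sqstm1, the gene of the autophagy receptor p62, fell from 1044, 1210 and 1070 CPM to 789, 807 and 810 CPM, a log2FC of -0.47, and the transcription factor genes Tfeb and Tfe3 fell by 0.30 and 0.38. Sqstm1 had fractional counts in all 6 libraries and shares exon bases with Mrnip on the other strand. The proteasome moved little, with 7 upregulated and 3 downregulated genes of 34 and a median of 0.01 that was below 0 under 7 of 19 alternatives, among them leaving out aging replicate 1 or normal replicate 1, and 0.02 without normal replicate 2. Psmd2 and Psmd1, subunit genes of its regulatory particle, rose by 0.21 and 0.20.

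Of 27 genes of antioxidant enzymes and of NRF2, the sensor pathway for oxidative stress, and its targets, 14 fell and 4 rose, with a median of -0.14. Not all of them are NRF2 targets. The only member at 2-fold or more, Slc7a11, is also counted in the amino acid response. Txnrd1, the thioredoxin reductase gene, fell from 339, 356 and 331 CPM to 270, 275 and 266 CPM, a log2FC of -0.34. The 4 that rose were Gpx1 (0.58), Gpx4 (0.14) and the pentose phosphate genes Tkt (0.31) and Pgd (0.24). The superoxide dismutase genes Sod1 and Sod2 had log2FCs of -0.01 and -0.03 and did not pass.

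Of 10 tubulin genes 6 rose and 2 fell, with a median of 0.23, and 5 of the 10 had fractional counts in all 6 libraries. Tuba1b rose from 1413, 1350 and 1465 CPM to 1853, 1898 and 1885 CPM, whereas Tubb2b had a log2FC of -1.20. Of 39 actin cytoskeleton genes 14 rose and 14 fell, with a median of 0.02 that was below 0 under 5 of 19 alternatives, among them leaving out normal replicate 1 or 3. Without aging replicate 2, 7 rose, and 9 fell without aging replicate 3 or without normal replicate 2. Actg1 rose by 0.18 and Myh9 fell by 0.10. Of 25 collagen and matrix genes 12 fell and 4 rose, with a median of -0.11 that was -0.07 without aging replicate 1. Fn1, the fibronectin gene, fell from 1040, 953 and 1011 CPM to 613, 685 and 661 CPM, a log2FC of -0.62, and Sparc rose from 717, 742 and 752 CPM to 804, 833 and 837 CPM.

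Of 18 immediate-early genes, which respond within minutes to growth factors and stress, 13 fell and 1 rose, with a median of -0.41. Ier3 fell from 275, 270 and 279 CPM to 153, 157 and 153 CPM, a log2FC of -0.83, and Junb from 93.0, 112 and 97.5 CPM to 65.6, 66.1 and 64.7 CPM. Klf10 was the gene that rose (0.36). Of 16 interferon and MHC class I genes 4 rose and 3 fell, with a median of -0.08 that was -0.04 without aging replicate 2 or normal replicate 1 and -0.05 without normal replicate 2. B2m, the shared light chain gene of MHC class I, rose from 640, 697 and 686 CPM to 737, 744 and 776 CPM, whereas the peptide transporter gene Tap2 fell from 39.1, 39.4 and 42.0 CPM to 28.5, 30.6 and 30.5 CPM.

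**Figure D5:**
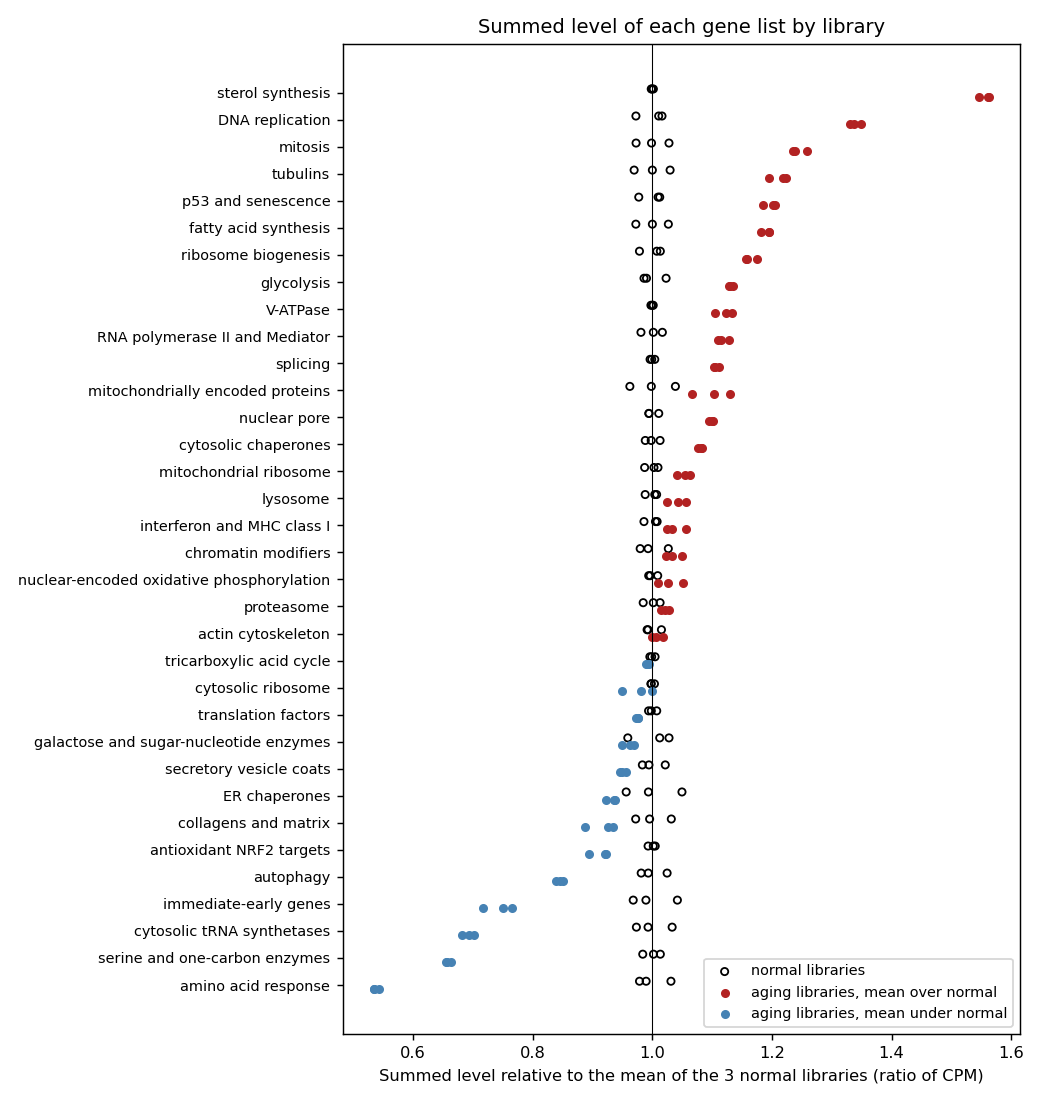
The summed CPM of the well-expressed members of each list is shown for each library, divided by the mean of the 3 normal libraries. Open circles are normal and filled circles aging libraries, red where their mean is above and blue where it is below the normal mean. In 30 of 34 lists the 3 aging sums lie wholly to 1 side of the normal sums, and most lists stay within a narrow band around 1.

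The KEGG pathways in the deposited annotation gave a wider view. There were 251 pathways with at least 20 well-expressed genes, and of the 3962 annotated genes 28.6% rose and 26.1% fell. The highest shares upward were in DNA replication (27 of 34), Mismatch repair (16 of 21), Fanconi anemia pathway (27 of 36), Base excision repair (17 of 27), Cell cycle (66 of 110) and Homologous recombination (21 of 35). Across these 6 pathways 1 gene, in Cell cycle, reached 2-fold. The highest shares downward were lower, at 12 of 22 in Ether lipid metabolism, 22 of 41 in VEGF signaling pathway, 19 of 36 in ECM-receptor interaction, 11 of 21 in ABC transporters, 12 of 23 in Type II diabetes mellitus and 34 of 66 in Choline metabolism in cancer. Pathways share genes, so these counts overlap.

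The fold changes were at most weakly correlated with simple gene properties. Across 8924 well-expressed genes, which are not independent replicates, the log2FC had a Spearman rho of 0.0454 with mean CPM and -0.0467 with transcript length, and across 8920 genes of -6.22e-05 with GC content. The share of genes that passed did grow with level. In the lowest of 5 equal classes of level, 10 to 21 CPM, 17.3% rose and 22.3% fell, and in the highest class, above 126 CPM, 36.4% rose and 29.6% fell. The median absolute log2FC went the other way, from 0.18 to 0.14, and the median standard error fell from 0.09 to 0.04 between those classes. Precision therefore grew with level while the size of the shifts did not. Well-expressed genes with fractional counts in all 6 libraries (701) passed in 49.5% of cases and the rest in 54.2%. Genes that share no exon bases with another expressed gene passed in 54.4%, while 234 shared bases on the same strand and 1367 on the other strand.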

How the data were processed

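RNA of 3 normal and 3 aging wells, and of 3 aging wells with USCs medium, had been enriched by oligo(dT) and sequenced. The authors deposited for each gene an expected count (an estimated, unnormalized number of reads) and an FPKM value scaled by length and depth. The submitters' processing notes name mm10. For the aligner, counter, strand setting and statistical test, names were not given in the sources used here. Of the 22322 genes 22267 were matched in GENCODE M21.

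Expected counts were rounded, since 6.92% to 7.38% of values per library were not whole. edgeR 4.0.16 (R 4.3.3) with filterByExpr, TMM factors and glmQLFit used all 9 libraries (residual degrees of freedom, 6). CPM used TMM-scaled totals. The method was tested on simulated data. Over well-expressed genes, same-numbered wells had deviations correlating at -0.122, 0.0578 and -0.116, so no pairing by number was seen. This check cannot exclude a shared order of the wells in some genes, such as the mitochondrially encoded ones. Exon overlaps came from GENCODE M21 and counted genes with reads here. Promoters came from the RefSeq table for GRCm38.p6.

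Named genes were the 8 per direction with the highest mean CPM and the 5 with the smallest p among small shifts without overlap, up to 4 genes per list that passed with the highest mean CPM, and members needed as defining genes or exceptions, chosen with values known. The members, the 34 lists and the markers were chosen with earlier results of these data known. Alternatives were other scaling factors, filters, level and fold limits, tests (DESeq2 1.42.0, edgeR's likelihood ratio test, glmTreat, limma 3.58.1 on log2 FPKM), offsets for GC content or length, only the 6 libraries, a replicate block and leaving out each well. The deposited annotation columns were used for KEGG names only.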

Additional observations from a re-analysis of the deposited data

How the results depend on the processing

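Counts of well-expressed genes moved by more than 1.5 times only where the question itself was changed. Tested against a 1.1-fold difference with glmTreat, 1396 genes were higher and 1352 lower in aging RGCs, of which 1379 and 1297 were under 2-fold. Against 1.2-fold these were 519 and 629, with 502 and 574 under 2-fold. With a level of at least 50 CPM they were 1460 and 1244, with 1452 and 1220 under 2-fold. With an upper limit of 25% in place of 2-fold, 1411 small shifts were lower and 1689 higher.

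With each well left out in turn, 2179 to 2284 genes were higher and 2049 to 2241 lower, and the small shifts were 2161 to 2265 and 1992 to 2186. DESeq2 gave 2269 and 2182 and kept 92.6% of the calls. limma on log2 FPKM gave 1786 to 1793 higher and 2097 to 2103 lower, kept 77.6% to 77.8% of the calls and called 1 gene, Ston2, in the other direction. Without scaling factors 2183 were higher and 2596 lower, as all values shifted by -0.02 on the log2 scale, so the share of higher genes went from 51.6% to 45.7%. The replicate block, for which no pairing by number was seen, gave 2480 and 2320, with 2463 and 2265 under 2-fold.

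Of the 145 genes that the rules on reads, p-values and lists took among those that passed, 124 passed under all 19 alternatives, 21 missed the threshold under at least 1, and none changed direction. The 21 had log2 fold changes near the smallest that passed, such as Hsp90ab1, Actb, Mybbp1a, Psmb4 and Tpm3, or lost the call by limma on FPKM, such as Scd1 and Ugdh. The causes were not tested. For a gene under 10 CPM the median standard error of 0.22 limits what can be seen to differences larger than most of those described here.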
